A study of Mus musculus with 9 samples.

Results

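The 10 genes described here encode antiviral effectors of the interferon response: the 2′-5′-oligoadenylate synthetase (OAS) family genes Oas1a, Oas2 and Oasl2, the IFIT genes Ifit1, Ifit2 and Ifit3, the membrane restriction factor gene Ifitm3, and Rsad2, Bst2 and Rtp4. They were taken by gene name from a table of normalised counts of 11931 genes, and 10 of the 10 were found and tested, among 10639 genes tested in all. The cells were normal mammary fibroblasts from the mammary fat pad of 12-week-old female BALB/c mice, kept on a collagen layer for a recovery of 1 week before the experiment. There were 3 groups with 3 libraries each: fibroblasts co-cultured with 4T1-GFP cells for 5 days, fibroblasts co-cultured with 4T1-GFP cells for 3 days, and fibroblasts in monoculture for 5 days. The 4T1 line derives from a mammary carcinoma of a BALB/c mouse and was marked here with green fluorescent protein. After culture, fibroblasts were sorted as GFP-negative cells that carry podoplanin (PDPN), and the 3′ ends of their mRNAs were sequenced. No 3-day monoculture was among the samples, so the 3-day comparison with monoculture differs in days of culture as well as in the presence of 4T1-GFP cells. Nothing in the labels says whether the libraries of a group came from separate cultures or animals, so p-values measure the spread between these libraries, which may be technical. The column used as replicate 2 of the 5-day co-culture does not name 4T1 cells in the file; without it, 9 of the 10 effector genes were called at 5 days, as with it.

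Interferons bind receptors at the cell surface, whose Janus kinases activate transcription factors, STAT2 with its partner IRF9 among them. These bind interferon-stimulated response elements in promoters and switch on genes whose products act against viruses at successive steps of infection. OAS enzymes sense double-stranded RNA and make short 2′-5′-linked oligoadenylates as a signal against viral RNA, IFIT proteins bind viral RNA and hold back its translation, and IFITM proteins hinder the fusion of virus with the membranes of the cell.

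Promoter sequence is shown for 4 of the 10 genes, chosen for where their response element letters lie, and for Ifitm2, a family member that was lower in co-culture. Each sequence covers 300 bases, from 250 before to 50 after the annotated start, 5′ to 3′ on the gene's strand, from RefSeq on GRCm38.p6. Capitals mark the letters GAAANNGAA, the core of an interferon-stimulated response element, where N is any base, or the same letters read on the opposite strand; overlapping matches run together.
Ifit1 (chr19:34640639-34640938, plus strand): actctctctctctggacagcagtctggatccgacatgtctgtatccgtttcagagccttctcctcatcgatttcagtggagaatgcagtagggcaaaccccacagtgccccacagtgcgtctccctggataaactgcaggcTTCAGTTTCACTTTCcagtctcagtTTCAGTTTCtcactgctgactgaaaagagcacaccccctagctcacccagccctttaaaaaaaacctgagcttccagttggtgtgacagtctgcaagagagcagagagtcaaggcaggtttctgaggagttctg
Oas1a (chr5:120907476-120907775, minus strand): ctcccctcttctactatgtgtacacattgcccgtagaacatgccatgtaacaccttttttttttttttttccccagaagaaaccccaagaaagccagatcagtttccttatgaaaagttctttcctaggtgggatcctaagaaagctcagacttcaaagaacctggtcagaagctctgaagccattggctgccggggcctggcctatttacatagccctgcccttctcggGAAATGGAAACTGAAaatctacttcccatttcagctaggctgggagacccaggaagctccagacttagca
Bst2 (chr8:71537423-71537722, minus strand): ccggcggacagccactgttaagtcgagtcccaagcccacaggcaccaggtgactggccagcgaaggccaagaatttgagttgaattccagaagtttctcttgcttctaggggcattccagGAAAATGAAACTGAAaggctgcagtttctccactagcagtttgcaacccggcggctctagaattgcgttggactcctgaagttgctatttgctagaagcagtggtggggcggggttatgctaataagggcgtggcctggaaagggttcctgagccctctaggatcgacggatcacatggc
Ifitm3 (chr7:141010695-141010994, minus strand): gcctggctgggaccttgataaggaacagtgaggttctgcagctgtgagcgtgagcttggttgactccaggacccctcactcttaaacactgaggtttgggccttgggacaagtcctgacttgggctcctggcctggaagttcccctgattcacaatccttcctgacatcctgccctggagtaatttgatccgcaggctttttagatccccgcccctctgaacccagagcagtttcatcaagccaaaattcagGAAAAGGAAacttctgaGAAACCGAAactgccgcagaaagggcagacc
Ifitm2 (chr7:140955912-140956211, minus strand): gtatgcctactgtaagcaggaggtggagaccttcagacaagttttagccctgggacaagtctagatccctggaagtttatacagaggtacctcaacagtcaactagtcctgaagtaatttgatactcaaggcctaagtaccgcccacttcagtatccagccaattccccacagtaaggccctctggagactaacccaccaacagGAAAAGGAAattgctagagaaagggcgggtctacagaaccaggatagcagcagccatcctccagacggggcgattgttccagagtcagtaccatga
The RefSeq table held promoters for 8 of the 10 genes, all but Oas2 and Rtp4. The letters occurred on either strand in 6 of these 8, Oas1a, Ifit1, Ifit3, Ifitm3, Rsad2 and Bst2, and 5 of them, all but Rsad2, held 2 or more matches. Among all 32851 promoters of the same length in the table, 8.56% held the letters and 0.624% held 2 or more matches. Counted by gene, 8.53% of the tested genes with a promoter held the letters. In Ifit1, 2 overlapping matches lay 109 to 95 bases before the start and a further one 84 to 76 bases before it, all on the opposite strand. In Oas1a the overlapping pair lay 20 to 6 bases before the start, and in Bst2 130 to 116 bases before it. In Ifitm3 the matches lay after the start, at bases 2 to 10 and 19 to 27, whereas the single match of Ifitm2 lay 46 to 38 bases before its start. No match was found in the window of Oasl2 or in either of the 2 windows of Ifit2. These matches are letters in a window and say nothing of binding.

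**Figure D1:**
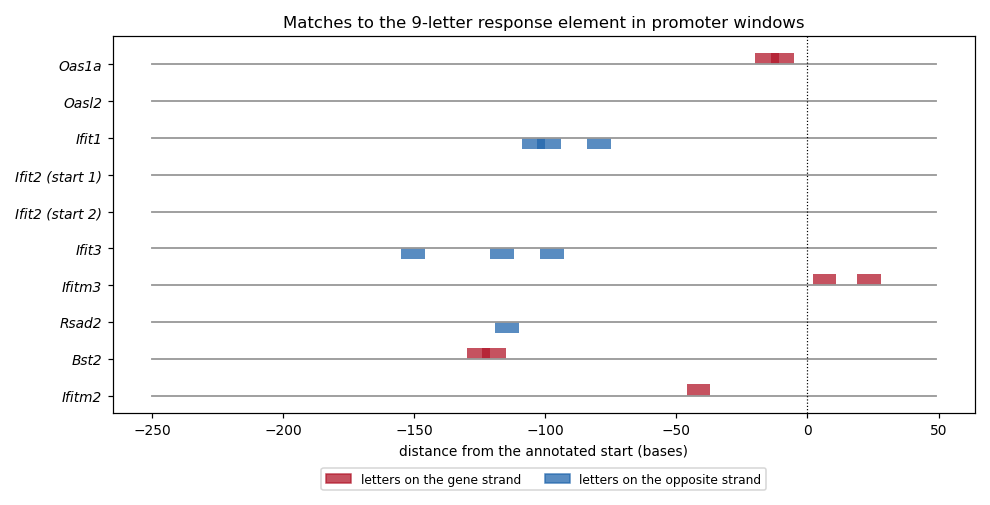
Position of matches to the letters GAAANNGAA in the promoter windows of the genes with a RefSeq entry, and of Ifitm2, by distance from the annotated start in bases (Ifit2 has 2 annotated starts). Red boxes are letters on the gene strand and blue boxes letters on the opposite strand; Ifit1 and Ifit3 have 3 matches each before the start, both matches of Ifitm3 lie after it, and the Oasl2 and Ifit2 windows have none.

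Libraries held between 1459381 and 1987168 reads after 5 days of co-culture, between 1048471 and 2579766 after 3 days, and between 2623911 and 3567326 in monoculture, as recovered from the normalised counts. All 12 fibroblast markers listed were in the table, Col1a1, Col1a2 and Vim the highest of them on average over all 9 libraries. Summed over the 12, normalised counts were 39560 to 53750 after 5 days, 44400 to 55640 after 3 days and 46230 to 63830 in monoculture. Against monoculture, 6 fell at 5 days, Col3a1, Pdgfra, Pdgfrb, Thy1, Dcn and S100a4, and 1 rose, Vim. At 3 days 5 fell, the same genes without Dcn. Over all genes tested, 11.4% fell at 5 days and 9.37% at 3 days. Col1a1 and Col1a2 were not called at either time. Pdpn, on which cells were sorted, had 318.1, 213.3 and 294.6 normalised counts after 5 days, 265.7, 388.4 and 229.6 after 3 days, and 211.0, 197.1 and 236.5 in monoculture, and did not pass the test in either comparison with monoculture. Epithelial and carcinoma markers moved with co-culture. Of 16 listed, 15 were in the table and 14 were tested. At each time 13 of the 14 were higher than in monoculture. Over all genes tested, 12.6% were higher at 5 days and 10.6% at 3 days. Epcam, Cdh1, Krt8, Krt7, Wfdc2, Cldn3, Cldn4, Esrp1, Spint1 and St14 averaged under 5 normalised counts in monoculture. They passed the filter on low values through the co-cultures, so they had to differ to be tested. Of the other markers tested, Krt18, Krt19 and Lcn2 were higher at each time and Spint2 was not called. Cldn3 and Elf3 were at 0 in every monoculture library. Summed over the 15 markers, the level was 1112 to 1553 after 5 days, 1126 to 1298 after 3 days and 56.1 to 83.4 in monoculture. Averaged over all 9 libraries, Wfdc2, Krt18 and Lcn2 were the highest of them. These markers differ between the groups in the same libraries as the effector genes below, and their part in those results was not tested. In a bulk sample, a change in the share of cells of a type and a change in RNA per cell cannot be told apart. Of 11 macrophage and leukocyte markers 7 were in the table, with sums of 72.3 to 165.8 after 5 days, 122.9 to 378.1 after 3 days and 99.6 to 278.9 in monoculture, which overlap; of the 6 tested, Csf1r was lower at 5 days (limma adjusted p = 0.012). Of 6 plasmacytoid dendritic and B cell markers, Tcf4 was the 1 in the table, and it was lower at 5 days and at 3 days (limma adjusted p = 0.04 and 0.0025). Of 6 endothelial markers 2 were in the table, Egfl7 and Kdr, and 0 were called by limma.

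Nearly the whole set of effectors was higher in co-culture. Against monoculture, 9 of 10 genes were higher after 5 days and 10 of 10 after 3 days by limma's test (adjusted p under 0.05), where 12.6% and 10.6% of all genes tested were higher. In the same 9 genes at 5 days and in 10 genes at 3 days, every co-culture library lay above every monoculture library, a separation seen in 20.8% and 19.2% of all genes tested. Oas1a, Oas2 and Rsad2 averaged under 5 normalised counts in monoculture and passed the filter on low values through the co-cultures, so they had to differ to be tested. Of the other 7 genes, 6 were higher at 5 days, with a median log2 fold change of 2.17 over the 7, and 7 at 3 days, with a median of 2.57, while the median over all genes tested was -0.008 and 0.001. Both comparisons use the same monoculture libraries. Fold changes are on the log2(normalised count + 1) scale, which understates the change of low genes, and a value after ± is the standard error unless marked as an SD.

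**Figure D2:**
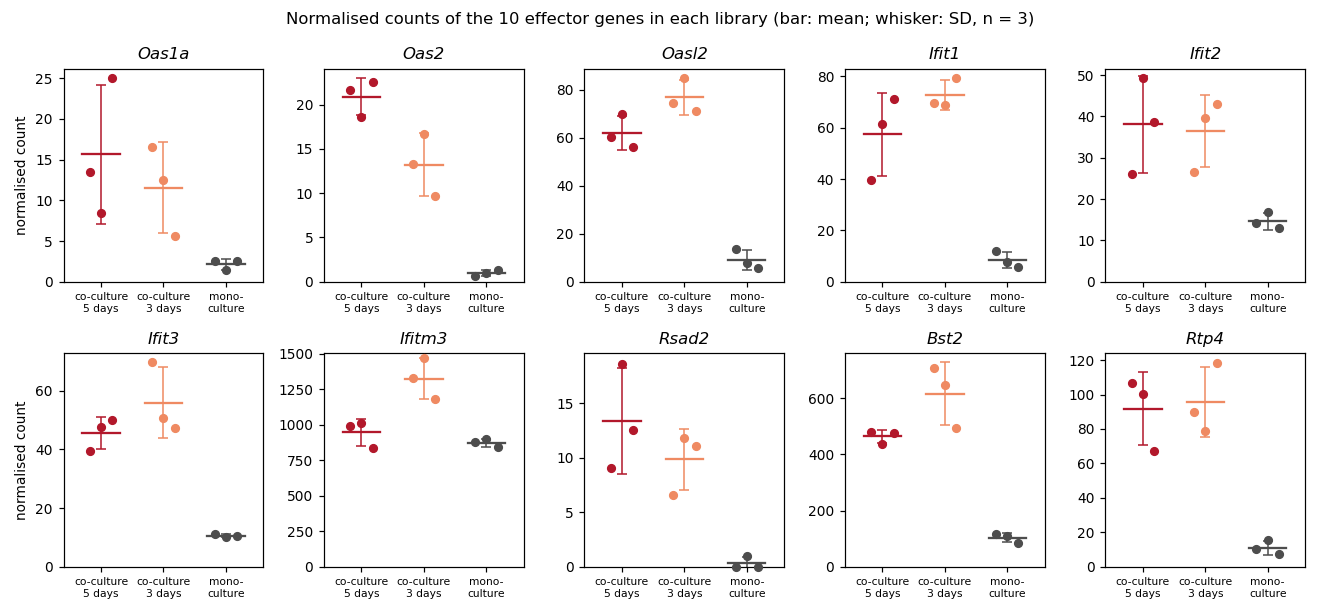
Normalised count of each of the 10 effector genes in every library, with 1 panel per gene, points for libraries, bars for the mean and whiskers for the SD (n = 3 per group). The monoculture points lie below all co-culture points in every panel except that of Ifitm3, where the 5-day co-culture points (835.2 to 1011.5) overlap the monoculture points (842.0 to 897.4).

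The OAS genes were low in monoculture and higher at both times. Oas1a, an enzyme that makes 2′-5′-oligoadenylates (chromosome 5, 120896256 to 120907521, minus strand, mm10), had 13.5, 8.4 and 25.0 normalised counts after 5 days, 16.6, 12.5 and 5.6 after 3 days and 2.5, 1.4 and 2.6 in monoculture. These rest on 44, 32 and 11 reads, and the co-culture libraries ranged widely, from 5.6 to 25.0, but all lay above the monocultures. Its log2 fold change was 2.29 ± 0.48 at 5 days and 1.90 ± 0.48 at 3 days (limma adjusted p = 0.0023 and 0.01). Of the 50-base stretches at the end of its transcripts, 56.1% were shared with another gene, mostly Oas1g, so reads of this pair could be split or lost depending on the authors' counting, whose setting is not given in the sources used here.

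Oas2, a second synthetase of the family (chromosome 5, 120730333 to 120749853, minus strand), had 21.6, 18.6 and 22.5 normalised counts after 5 days, 13.3, 16.7 and 9.7 after 3 days and 0.6, 1.0 and 1.3 in monoculture, from 62, 39 and 5 reads. All co-culture libraries stood well above the monocultures, and the 5-day libraries were all higher than the 3-day ones. The log2 fold change was 3.49 ± 0.38 at 5 days and 2.84 ± 0.38 at 3 days (limma adjusted p = 5.8e-06 and 7e-05), and the difference between the 2 times, 0.65 (95% interval -0.16 to 1.46), did not pass the test (adjusted p = 0.34).

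Oasl2, an OAS-like protein with ubiquitin-like domains (chromosome 5, 114896936 to 114912234, plus strand), had 60.2, 69.9 and 56.2 normalised counts after 5 days, 74.7, 84.9 and 71.0 after 3 days and 13.6, 7.7 and 5.8 in monoculture. Here the order of the co-cultures was the reverse of that of Oas2, with every 5-day library below every 3-day library. It rose by 2.72 ± 0.28 at 5 days and by 3.03 ± 0.28 at 3 days on the log2 scale (limma adjusted p = 3.2e-06 and 1.9e-06), and its difference between the times was -0.31 (95% interval -0.90 to 0.29, adjusted p = 0.57).

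The 3 IFIT genes, which lie together on chromosome 19, rose at both times. Ifit1, which recognises the 5′ end of RNAs that lack the host's cap methylation (34640871 to 34650009, plus strand), had 39.5, 61.5 and 71.2 normalised counts after 5 days, 69.7, 68.9 and 79.3 after 3 days and 11.8, 7.7 and 5.8 in monoculture. Ifit3 (34583531 to 34588731, plus strand), a related protein with the same kind of repeats, had 39.5, 47.5 and 49.9 after 5 days, 69.7, 50.8 and 47.3 after 3 days and 11.1, 10.1 and 10.3 in monoculture. Ifit2 (34550694 to 34576419, plus strand), a further member that binds RNA, had 26.1, 49.4 and 38.7 after 5 days, 26.6, 39.7 and 43.1 after 3 days and 14.2, 16.8 and 12.9 in monoculture. No co-culture library overlapped the monocultures for any of the 3, and the gap was narrowest for Ifit2, whose lowest 5-day library of 26.1 stood above a highest monoculture of 16.8.

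At 5 days the log2 fold changes were 2.64 ± 0.29 for Ifit1, 2.01 ± 0.25 for Ifit3 and 1.28 ± 0.30 for Ifit2, and the limma adjusted p-values were 7e-06, 2.5e-05 and 0.0049. At 3 days they were 3.01 ± 0.29 for Ifit1, 2.29 ± 0.25 for Ifit3 and 1.24 ± 0.30 for Ifit2, with adjusted p of 2.9e-06, 1.1e-05 and 0.0073. Among all genes tested, 1.53% had a larger fold change than Ifit1 at 5 days, against 5.87% for Ifit2. The ratio of Ifit1 to Ifit2 counts within a library was 1.51, 1.25 and 1.84 after 5 days, 2.62, 1.74 and 1.84 after 3 days and 0.83, 0.46 and 0.45 in monoculture. The ratio of Ifit3 to Ifit2 was 1.51, 0.96 and 1.29 after 5 days, 2.62, 1.28 and 1.10 after 3 days and 0.78, 0.60 and 0.80 in monoculture. Both ratios were higher in every co-culture library than in every monoculture, with an exact two-sided permutation p of 0.1 in each of these 4 comparisons, the smallest that 3 against 3 libraries allow (0.15 after adjustment over 9 such tests). This test could therefore not pass the threshold used for genes, and the ratios were chosen after the values were seen. Of the last transcript bases of Ifit3, 14.9% of 50-base stretches were shared, mostly with Ifit3b, and no stretch of Ifit1 or Ifit2 was shared with another gene.

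Ifitm3 was the gene of the 10 that was not called at 5 days. It encodes a membrane protein that blocks the entry of enveloped viruses (chromosome 7, 141009586 to 141010770, minus strand), and it had 990.1, 1011.5 and 835.2 normalised counts after 5 days, 1330.1, 1468.1 and 1178.4 after 3 days and 875.8, 897.4 and 842.0 in monoculture. The 3-day libraries stood above all others, and the 5-day libraries overlapped the monocultures. At 3 days it was higher by 0.60 ± 0.16 on the log2 scale (limma adjusted p = 0.016), a call that was lost without replicate 2 of the 3-day co-culture (0.52, adjusted p = 0.075) and without replicate 3 of the monoculture (0.57, adjusted p = 0.06); over all alternatives the adjusted p ranged over 0.0031 to 0.075. At 5 days the log2 fold change of Ifitm3 was 0.11 (95% interval -0.23 to 0.46, adjusted p = 0.68).

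Ifitm2, on the same chromosome (140954837 to 140955987, minus strand) and also an inhibitor of viral entry, had 303.7, 336.2 and 199.7 normalised counts after 5 days, 461.6, 377.3 and 329.7 after 3 days and 662.8, 804.7 and 754.6 in monoculture. It fell by 1.43 ± 0.21 at 5 days and by 0.93 ± 0.21 at 3 days on the log2 scale (limma adjusted p = 9.2e-05 and 0.0042), and every co-culture library lay below every monoculture. Lower calls made up 11.4% and 9.37% of all genes tested in these comparisons. The ratio of Ifitm3 to Ifitm2 counts was 3.26, 3.01 and 4.18 after 5 days, 2.88, 3.89 and 3.57 after 3 days and 1.32, 1.12 and 1.12 in monoculture. The ratio was higher in every co-culture library than in every monoculture, and it too was chosen after the values were seen. The exact two-sided permutation p was 0.1 for each co-culture group against monoculture (0.15 adjusted over the 9 tests). That is again the smallest p possible, so this test could not pass the threshold used for genes and adds nothing to the separation. Between the co-cultures the exact permutation p was 1.0. A ratio shows unequal change and not which of the pair changed. At the end of the transcripts, 14.0% of the 50-base stretches of Ifitm3 and 41.9% of those of Ifitm2 were shared with other annotated genes, mostly Gm7676 and Gm11951 for Ifitm3 and Gm45717 and Gm11951 for Ifitm2.

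**Figure D3:**
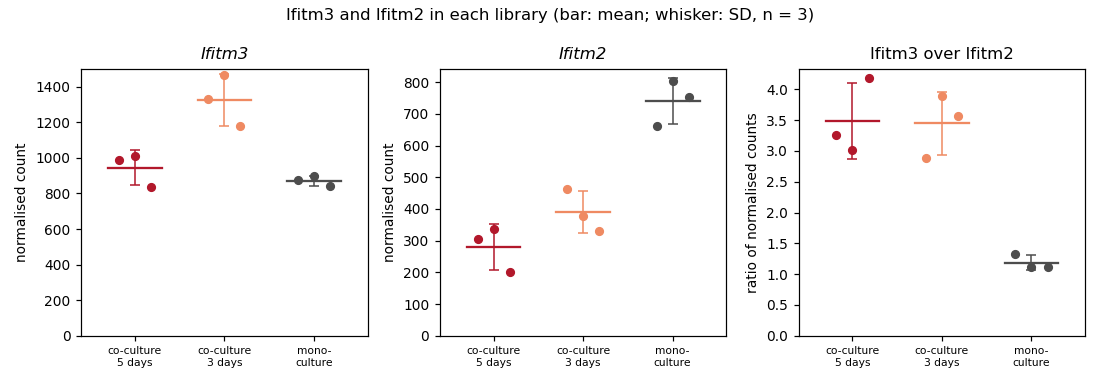
Normalised counts of Ifitm3 and Ifitm2 in every library and their ratio, with points for libraries, bars for the mean and whiskers for the SD (n = 3 per group). Ifitm2 is lower in all 6 co-culture libraries (199.7 to 461.6) than in monoculture (662.8 to 804.7), and the ratio lies between 2.88 and 4.18 in co-culture and between 1.12 and 1.32 in monoculture.

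The 3 remaining effectors rose at both times. Rsad2 encodes viperin, an enzyme that makes a nucleotide analogue which ends viral RNA chains (chromosome 12, 26442746 to 26456452, minus strand). It had 9.0, 18.6 and 12.5 normalised counts after 5 days, 6.6, 11.8 and 11.1 after 3 days and 0.0, 1.0 and 0.0 in monoculture. The monocultures held 2 reads in all, in 1 library, against 40 after 5 days and 29 after 3 days. The ratio of reads to monoculture, scaled by what a read is worth, was 35.2 at 5 days (95% Clopper-Pearson interval 9.12 to 300.3) and 27.6 at 3 days (6.99 to 238.9), intervals that cover counting error only. The limma adjusted p was 6.4e-05 at 5 days and 0.00027 at 3 days.

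Bst2 encodes tetherin, which holds budding virus particles at the cell surface (chromosome 8, 71534255 to 71537456, minus strand). It had 479.8, 437.7 and 474.4 normalised counts after 5 days, 709.1, 645.3 and 492.5 after 3 days and 116.4, 108.2 and 84.2 in monoculture. The groups did not overlap, with the monocultures lowest and the 3-day libraries highest. Its log2 fold change was 2.17 ± 0.19 at 5 days and 2.57 ± 0.19 at 3 days (limma adjusted p = 4.6e-07 and 1.2e-07), the smallest adjusted p among the 10 genes at each time.

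Rtp4, a receptor transporter protein that interferon induces (chromosome 16, 23520291 to 23614222, plus strand), had 106.9, 100.6 and 67.4 normalised counts after 5 days, 89.7, 78.7 and 118.3 after 3 days and 10.5, 15.4 and 7.1 in monoculture. The co-cultures overlapped each other and stood far above the monocultures. The log2 fold change was 2.98 ± 0.29 at 5 days and 3.05 ± 0.29 at 3 days (limma adjusted p = 1.5e-06 and 2.2e-06).

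**Figure D4:**
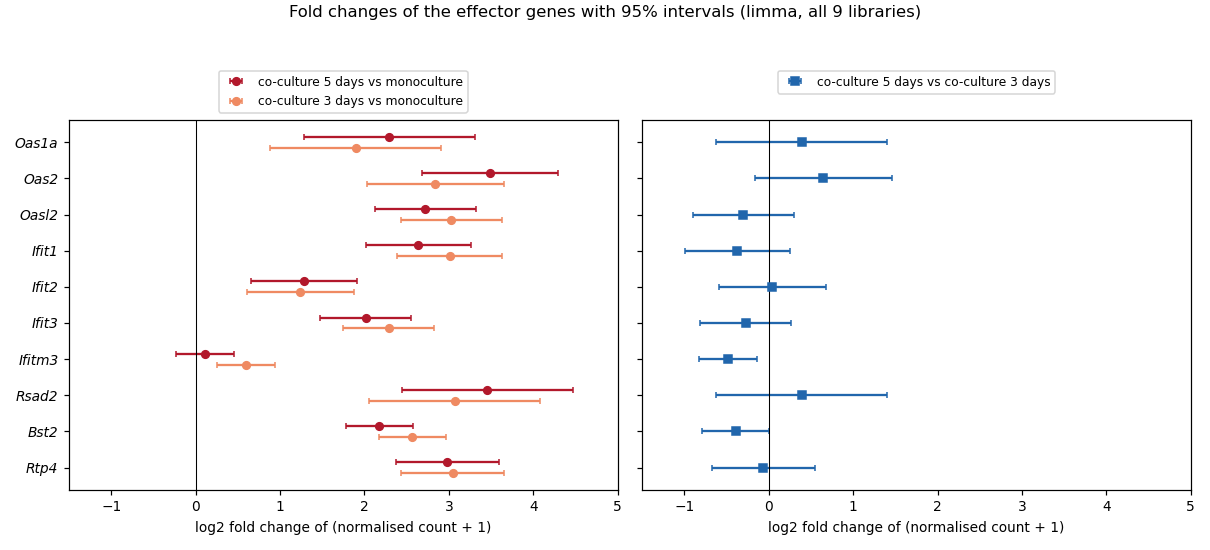
Log2 fold changes of the 10 effector genes with 95% intervals from limma, co-culture against monoculture at left and 5 against 3 days of co-culture at right; the x axes are log2 fold changes of (normalised count + 1). Every interval at left lies above 0 except that of Ifitm3 at 5 days (-0.23 to 0.46), and at right only the interval of Ifitm3 (-0.83 to -0.14) leaves out 0.

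Between the 2 durations of co-culture, 0 of the 10 genes passed limma's test, where 6.91% of all genes tested did. At an unadjusted p under 0.05 there was 1, Ifitm3, and edgeR on recovered reads called 0 and DESeq2 called 1. Ifitm3 was lower at 5 days by a log2 fold change of -0.49 ± 0.16 (95% interval -0.83 to -0.14, limma adjusted p = 0.086), and DESeq2 gave an adjusted p of 0.048, in a range of 0.048 to 0.26 over all alternatives. In 3 genes, Oasl2, Ifitm3 and Bst2, every 5-day library lay below every 3-day library, a pattern held by 12.9% of all genes tested, and in 1, Oas2, every 5-day library lay above, as in 11.7% of all genes. Bst2 had a difference of -0.39 (95% interval -0.79 to 0.005, adjusted p = 0.23) and Ifit1 of -0.37 ± 0.29 (adjusted p = 0.5). For Rtp4 and Ifit2 the differences were -0.07 (-0.68 to 0.54) and 0.04 (-0.59 to 0.67), and for Oas1a and Rsad2 0.39 each, with intervals that reach 1.41. These last intervals leave room for changes in either direction.

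Averaged over the 10 genes, the log2 values centred on each gene's mean were 0.63, 0.82 and 0.83 after 5 days, 0.82, 0.89 and 0.69 after 3 days and -1.47, -1.47 and -1.74 in monoculture. The co-culture libraries of both times thus lay within 0.63 to 0.89, and the monocultures were apart from them. Oas1a, Oas2 and Rsad2, which had to differ to be tested, are part of this mean. Among tested genes outside the set that averaged at least 20 normalised counts, the 6 whose pattern over the 9 libraries was most like this mean were Gbp2b, Agrn, Pitpnc1, Cnnm4, Ctgf and Tgfb2, with root mean square differences of 0.157, 0.276, 0.281, 0.289, 0.296 and 0.311 on the log2 scale. Of the effectors themselves, only Bst2 (0.194) and Ifit3 (0.2) lay within 0.311 of their mean, and Ifitm3 lay farthest from it (0.959). Gbp2b, a guanylate-binding protein, averaged 55.1 normalised counts after 5 days, 48.3 after 3 days and 10.1 in monoculture. Agrn encodes the matrix proteoglycan agrin and Ctgf a secreted matrix-associated growth factor.

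The other members of the families were scored from a list of 18 paralogs, of which 9 were in the table and 6 were tested. At each time 4 of the 6 rose, Oas3, Oasl1, Oas1b and Ifit3b, and 1 fell, Ifitm2. Among all genes tested, 12.6% rose and 11.4% fell at 5 days, and 10.6% rose and 9.37% fell at 3 days. Oas3, a larger synthetase, had 17.1, 14.0 and 20.0 normalised counts after 5 days, 21.6, 12.5 and 15.3 after 3 days and 0 reads in all 3 monocultures, which puts it at least 29.3-fold higher at 5 days and at least 26.7-fold higher at 3 days, with 3 counts over the whole group taken as the lowest level detectable. Oasl1, an OAS-like protein, had 82.7, 99.7 and 96.1 after 5 days, 78.0, 64.7 and 32.0 after 3 days and 6.8, 6.2 and 7.1 in monoculture. Its log2 fold change was 3.60 ± 0.30 at 5 days and 2.85 ± 0.30 at 3 days (limma adjusted p = 3.3e-07 and 6.3e-06), and the lowest co-culture library, at 32.0, was still above the highest monoculture. Oas1c had log2 fold changes of 0.98 at 5 days and 1.01 at 3 days and did not pass limma's test (adjusted p = 0.066 and 0.065), while edgeR on recovered reads called it at 3 days and DESeq2 did not; all co-culture libraries were higher than all monocultures. Oas1b, Oas3 and Ifit3b averaged under 5 in monoculture and were tested because of their co-culture values. Of the other 3, Oasl1 rose and Ifitm2 fell at each time.

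Of 4 listed partners of these enzymes, 3 averaged 5 or more in monoculture, and of these 1 rose at 5 days and 0 at 3 days by limma, edgeR and DESeq2 alike, with 0 at an unadjusted limma p under 0.05 at 3 days. By limma, 12.6% of all genes tested rose at 5 days and 10.6% at 3 days. Cmpk2, a nucleotide kinase whose gene neighbours Rsad2, had 5.4, 16.8 and 6.2 normalised counts after 5 days, 8.3, 11.8 and 8.3 after 3 days and 0.6, 1.0 and 0.0 in monoculture, on 29, 28 and 3 reads. It was higher at both times (limma adjusted p = 0.0012 at 5 days and 0.00099 at 3 days), and was tested because of its co-culture values. Abce1, an ATP-binding protein that recycles ribosomes, was higher at 5 days by 0.64 ± 0.20 on the log2 scale (limma adjusted p = 0.031) and not called at 3 days, where its log2 fold change was 0.31 (adjusted p = 0.32). Pde12, which degrades 2′-5′-oligoadenylates, did not pass the test at either time.

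Upstream of the effectors, 5 interferon receptor chains were tested, and limma called 0 of them against monoculture at either time, with 1 at 5 days and 3 at 3 days at an unadjusted p under 0.05 and 0 by edgeR and DESeq2. Of all genes tested, limma called 12.6% higher and 11.4% lower at 5 days, and 10.6% higher and 9.37% lower at 3 days. Ifnar1, a chain of the type I receptor, averaged 21.2 normalised counts after 5 days and 19.0 in monoculture, with a log2 fold change of 0.16 (95% interval -0.44 to 0.76). Ifnar2, the other chain, had 209.3, 226.3 and 203.5 after 5 days, 290.6, 433.7 and 407.6 after 3 days and 306.4, 293.7 and 224.3 in monoculture. It was lower at 5 than at 3 days of co-culture by a log2 fold change of -0.80 ± 0.19 (limma adjusted p = 0.02), with no overlap between these groups. The interferon genes on the list were not in the table of normalised counts and could not be analysed here.

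Among 9 tested JAK-STAT and IRF factors, Irf7, Irf9 and Stat2 rose at both times. Irf7, a factor that amplifies interferon production, had 289.3, 295.2 and 258.4 normalised counts after 5 days, 380.3, 382.9 and 293.6 after 3 days and 29.7, 26.9 and 35.3 in monoculture, with log2 fold changes of 3.16 ± 0.19 and 3.48 ± 0.19 (limma adjusted p = 8.9e-09 and 7.1e-09). Irf9 and Stat2, which act together in a complex that binds response elements, rose by 1.41 ± 0.23 each at 5 days and by 1.65 ± 0.23 and 1.34 ± 0.23 at 3 days. Irf1 and Socs1, a factor and a feedback inhibitor of the pathway, fell at 5 days by 0.82 ± 0.24 and 0.98 ± 0.31 (adjusted p = 0.021 and 0.032). At 3 days their log2 fold changes were -0.40 and -0.92, and neither passed limma's test; on recovered reads, edgeR and DESeq2 called Socs1 lower at 3 days. The median log2 fold change over the 9 factors was 0.44 at 5 days and 0.30 at 3 days, against -0.008 and 0.001 over all genes tested. By limma, 12.6% of all genes tested rose and 11.4% fell at 5 days, and 10.6% rose and 9.37% fell at 3 days.

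Of 32 tested genes on a list of other interferon-stimulated genes, 21 rose and 1 fell at 5 days, and 22 rose and 1 fell at 3 days, with medians of 1.21 and 1.32. Of the 26 that averaged 5 or more in monoculture, 16 rose at 5 days and 18 at 3 days. Over all genes tested, 12.6% rose and 11.4% fell at 5 days, and 10.6% rose and 9.37% fell at 3 days. The medians over all genes tested were -0.008 and 0.001. This list was chosen with earlier results of these data known. Isg15, a ubiquitin-like modifier, averaged 1083 ± 309 normalised counts after 5 days, 1165 ± 91.0 after 3 days and 93.8 ± 13.3 in monoculture (SD, n = 3 each). Its log2 fold change was 3.49 ± 0.20 at 5 days and 3.63 ± 0.20 at 3 days (limma adjusted p = 6.9e-09 and 7.6e-09). Usp18, which removes ISG15 from proteins, rose by 4.13 ± 0.26 and 3.71 ± 0.26, and Ifi44 by 4.51 ± 0.39 and 4.59 ± 0.39. Usp18 and Ifi44 averaged under 5 in monoculture, on 26 and 19 reads, and were tested because of their co-culture values. Samhd1, an enzyme that depletes deoxynucleotides, went the other way, with 47.6, 31.7 and 37.5 normalised counts after 5 days, 11.6, 36.9 and 22.3 after 3 days and between 87.4 and 104.0 in monoculture. It fell by 1.31 ± 0.33 at 5 days and by 2.13 ± 0.33 at 3 days (limma adjusted p = 0.0078 and 0.00022). Zbp1, a sensor of Z-form nucleic acids, rose at both times and was lower at 5 than at 3 days by a log2 fold change of -1.43 ± 0.25 (adjusted p = 0.003).

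**Figure D5:**
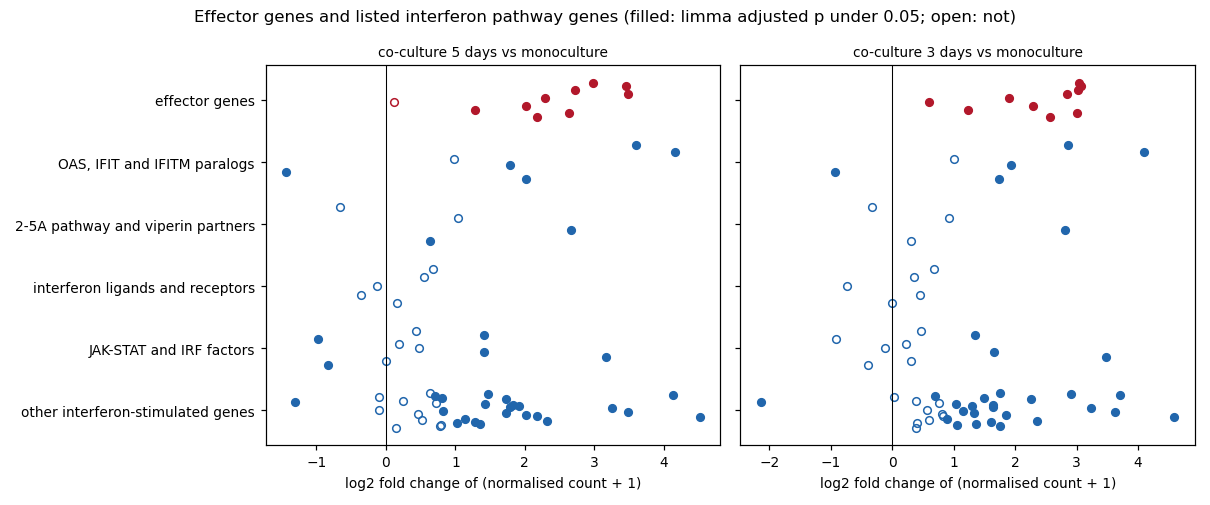
Log2 fold changes of (normalised count + 1) against monoculture for the effector genes and the tested genes of each list, at 5 days (left) and 3 days (right) of co-culture; each point is a gene, filled where the limma adjusted p was under 0.05 and open where it was not. Effector genes and other interferon-stimulated genes lie mostly to the right of 0, the receptor chains are all open, and Ifitm2 and Samhd1 are the filled points farthest to the left in their lists.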

How the data were processed

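Messenger RNA 3′ ends of sorted fibroblasts were sequenced in 9 libraries. Per the submitters' processing notes, bcl2fastq, STAR 2.4.2a and HTSeq were used with mm10; annotation, strand setting, gene filter and scaling are not given in the sources used here. The authors deposited normalised counts, a signal on a count scale rounded to 1 decimal. Every value was a whole multiple of what 1 read is worth in its library, 0.4807 to 1.6606 units, so 100% of values gave whole reads within a tolerance of 0.051. The column used as replicate 2 of the 5-day co-culture does not name 4T1 cells; it was placed there because the monoculture of that number has its own column. Results without it are among the alternatives.

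limma 3.58.1 (R 4.3.3, trend) was fitted to log2(value + 1) of 10639 genes (a minimum of 5 reached by 3 libraries or more), all 9 libraries in 1 model, two-sided, with Benjamini-Hochberg adjustment over all genes tested and a threshold of 0.05. A limma adjusted p in the text is from this fit. edgeR 4.0.16 (quasi-likelihood) and DESeq2 1.42.0 on recovered reads were alternatives, with other pseudocounts (0.5, 5), no low-value filter, a mean minimum of 20, 2 rescalings, a replicate block, a fit of the compared groups alone and each library left out. Scripts were tested on simulated data. The effector genes and lists were chosen with earlier results of these data known. Named genes are the effectors, at most 4 per list by adjusted p and any that went against the list, the 6 genes nearest in pattern, Pdpn and the 3 highest markers of a list. Ifit3b, Oas1c, genes in the table but not tested, and all other markers were named after their values were seen. The transcript-end check (50-base stretches of the last 500 bases, GENCODE M21, mm10, not the BALB/c genome) and the within-family ratios were added after the values were seen. A planned comparison of protein sequences was not run. Some listed genes are not reported here.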

Additional observations from a re-analysis of the deposited data

How the results depend on the processing

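Over 10 alternatives that keep all libraries and 9 that leave 1 out, 553 of 561 fold changes of the effector genes kept their direction and their side of the threshold. Other low-value filters, the replicate block and the fit of the compared groups alone leave the fold changes as they were. So does leaving out a library of the group not compared. In these cases the direction could not turn. The calls of Ifitm3 at 3 days that were lost are given above. Ifitm3 passed the test between 5 and 3 days by DESeq2 (-0.48, adjusted p = 0.048), so 1 effector was called there against 0. Between 5 and 3 days, signs turned in 5 cases with a library left out, none past the threshold: Oas1a (-0.016 to 0.74 over the libraries left out) without replicate 3 of the 3-day co-culture, Ifit2 (-0.16 to 0.28) without replicate 2 of the 5-day or replicate 1 of the 3-day co-culture, and Rtp4 (-0.20 to 0.14) without replicate 3 of the 5-day or of the 3-day co-culture (0.10). Of genes on the 5 lists, 2 were called between the times, and 4 with a pseudocount of 5, the replicate block or DESeq2; leaving out a library gave 1 to 4. Over all genes 735 were called there, and 323 to 739 with a library left out: 323 without replicate 2 of the 3-day co-culture, and 442, 426 and 458 without replicates 1, 2 and 3 of the 5-day co-culture. The cause was not tested.

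Effectors called with a library left out were 9 at 5 days, also without the replicate 2 library of doubtful label, and 9 to 10 at 3 days. Replicate numbers were not shown to pair libraries: correlations of same-numbered deviations ran from -0.114 to 0.233, and 8 of 18 were highest for the library's own number. With the replicate block, 9, 10 and 0 effectors were called at 5 days, at 3 days and between them, and 2663, 2219 and 827 genes in all. A mean of at least 20 left out some low effectors. Depth limits Oas1a, Oas2 and Rsad2, with 11, 5 and 2 reads over the monocultures.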

Other observations

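Some family genes were in the table below the filter. Ifitm1 had 0 reads in all 3 libraries after 5 days of co-culture, 1.7, 2.1 and 5.6 normalised counts after 3 days and 1.2, 4.3 and 3.2 in monoculture. Oas1g, which shares transcript-end sequence with Oas1a, had 8.1, 2.8 and 7.5 after 5 days, 0.0, 3.5 and 2.8 after 3 days and 0.6, 0.0 and 0.0 in monoculture.

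Ifit1 and Ifit3 had the same number of reads in 2 libraries, 44 in replicate 1 of the 5-day co-culture and 42 in replicate 1 of the 3-day co-culture, and different numbers in the others. As a share of all reads recovered, the 10 effectors took 0.0907% to 0.1% after 5 days, 0.117% to 0.138% after 3 days and 0.0576% to 0.063% in monoculture, and the 3 groups did not overlap. Ifitm3 made up 50.5% to 59.3% of the summed normalised counts of the effectors in co-culture and 82.9% to 86.6% in monoculture. The sums of the OAS genes, and those of the IFIT genes, overlapped between 5 and 3 days of co-culture.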
